A study of Homo sapiens with 16 samples.

Results

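The aminoacyl-tRNA synthetases were followed here as 35 genes, 19 listed as cytosolic and 16 as mitochondrial, out of 63677 gene identifiers in the count files. They were taken by name from a list, so the rule uses no measured value, though the list was drawn up with earlier results of these data known. The 2 sets were kept apart throughout. The list does not hold every synthetase gene. Whether a gene listed as cytosolic, such as GARS1 or KARS1, also codes for a mitochondrial enzyme was not examined. All 35 genes passed the filter on low counts, the weakest being SARS2 with 48 reads in its lowest library.

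The study measured poly(A) RNA in UACC62P, a parental human melanoma line, and UACC62R, a line derived from it by 2 months of selection with the BRAF inhibitor vemurafenib at 2 uM. Both lines were exposed to 10 uM of the small molecule CCG-222740 for 2, 6 or 24 h, and were compared with libraries labelled 0 h. Each of the 8 groups of line and time had 2 libraries. The labels state continuous culture in 2 uM vemurafenib for the resistant variants only on the 0 h libraries, so a change of UACC62R with time cannot be told apart from a change in that culture condition. The difference between the lines at 0 h, and a difference of response that uses those libraries, likewise cannot be told apart from vemurafenib in the culture. The 8 groups were thus the same 4 times in each line, and each line is 1 cell line. The 0 h libraries are titled in another pattern than the treated ones, and their sample numbers lie apart. Whether they were prepared together was not examined. A change from 0 h therefore cannot be told apart from such a split. The 0 h libraries carry the treatment label none, no vehicle library of a later time was used, and nothing in the labels says that the 2 libraries of a group came from separate cultures, so p-values measure the spread between these libraries.

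Synthetases join amino acids to their tRNAs, which makes the charged tRNA that the ribosome reads. Several cytosolic synthetases sit together in the multisynthetase complex, held by the scaffold proteins AIMP1, AIMP2 and EEF1E1, while the mitochondrial enzymes are coded in the nucleus and imported to charge the mitochondrion's own tRNAs. Uncharged tRNA activates the kinase GCN2 (gene EIF2AK4), which phosphorylates eIF2alpha and raises translation of the transcription factor ATF4, and ATF4 is known to activate genes of amino acid synthesis and transport and a number of cytosolic synthetase genes.

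Promoter sequence from RefSeq (GRCh38.p14) was on hand for 30 of the 35 genes, 16 cytosolic and 14 mitochondrial. LARS1, VARS1, YARS1, AARS2 and VARS2 had no entry. The 250 bases before each gene's start were searched on both strands for TGATGNAA, the core of the composite C/EBP-ATF element that ATF4 is known to bind, and for CACGTG, the E-box. The first was found in 870 of 27305 promoters (3.19%) and in 2 of 16 cytosolic (12.5%) and 1 of 14 mitochondrial (7.14%) synthetase promoters. The E-box was found in 6.49% of all promoters and in 1 cytosolic and 2 mitochondrial ones. The windows below, on the strand of each gene, are the 3 that hold the ATF element, and that of MARS2, the gene with the largest difference between the lines. Capitals mark the matched letters. TTGCATCA is the element read from the opposite strand.
IARS1, chr9:92293698-92293913, minus strand: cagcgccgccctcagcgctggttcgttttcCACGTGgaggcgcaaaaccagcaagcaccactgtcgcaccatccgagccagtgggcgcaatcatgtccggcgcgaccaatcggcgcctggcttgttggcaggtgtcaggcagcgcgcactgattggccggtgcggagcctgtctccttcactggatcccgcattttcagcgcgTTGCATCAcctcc
AARS1, chr16:70289656-70289723, minus strand: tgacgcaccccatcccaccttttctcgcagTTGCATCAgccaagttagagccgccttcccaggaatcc
YARS2, chr12:32756057-32756124, minus strand: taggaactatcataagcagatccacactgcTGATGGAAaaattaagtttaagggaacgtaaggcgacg
MARS2, chr2:197705328-197705368, plus strand: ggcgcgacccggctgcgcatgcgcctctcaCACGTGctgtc

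In IARS1 the ATF element began 13 bases before the start and an E-box 186 bases before it. The element began 187 bases before the start in AARS1 and 197 bases before it in YARS2. The E-box of MARS2 began 11 bases before its start, and that of EARS2 15 bases before. These are matches of letters in a window and not measured binding sites.

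The libraries held 25932053 to 33342482 reads in genes, and 20280 genes were tested. The library labelled UACC62P 2 h replicate 1 was left out, because its melanocytic gene SOX10 stood at 18.1 CPM (read counts scaled to a common library size after TMM normalisation) against 752 to 913 in the other UACC62P libraries and 19.9 to 30.1 in UACC62R. Its AXL, a receptor kinase of dedifferentiated melanoma, stood at 196 CPM against 2.67 to 5.53 and 173 to 281. The ranges given around this library are on the scaling of all 16 libraries. On it 21 synthetases had ranges in the 2 lines that did not overlap, as had 45.1% of all genes tested. This library lay in the UACC62R range for 13 of the 21, in neither for 8 and in the UACC62P range for 0, where the shares over all such genes were 58.3%, 36.1% and 5.63%. LARS1, at 212 CPM, and QARS1, at 159, lay beyond the UACC62P range on the side away from UACC62R. WARS1 stood at 131 CPM in it, against 324 to 464 in the other UACC62P libraries and 126 to 171 in UACC62R. UACC62P at 2 h is therefore 1 library, assumed to vary like the other groups.

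Of 4 epithelial markers 2 passed the low-count filter, KRT8 and KRT18, and both were higher in UACC62R at 0 h (log2 differences 1.77 and 1.56, adjusted p = 9.32e-06 and 1.69e-08). KRT18 also rose at 24 h in UACC62P (0.50, adjusted p = 0.0195), with a difference of response of -0.79 (adjusted p = 0.0299), and fell by 0.40 from 6 to 24 h in UACC62R. The summed epithelial level was 26.3 to 39.6 CPM in UACC62P and 64.9 to 90.9 in UACC62R, while CDH1 had 0 reads in every library and EPCAM at most 4. Of 3 endothelial markers VWF was tested and did not pass at 0 h or at 24 h, with PECAM1 at 0 reads and CDH5 at most 3, and the sum was 0.108 to 0.848 and 0.626 to 1.66 CPM. Of the blood markers reported here PTPRC and LYZ were tested and did not pass, and CD3E and HBB had 0 reads in every library. The part of KRT8 and KRT18 in the synthetase differences was not tested.

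Levels between genes were compared as CPM per kilobase of exon. In UACC62P at 0 h the highest synthetase mRNAs on this scale were GARS1, for glycine, at 192, FARSA, the catalytic subunit of the phenylalanine enzyme, at 158, and SARS1, for serine, at 146. The lowest cytosolic gene was HARS1, for histidine, at 32.8. Among the mitochondrial genes IARS2, for isoleucine, was at 85.6 and all the others at or under 26.1. SARS2 was lowest at 0.855, but 83.1% of its exon bases lie in other genes, among them MRPS12 on the opposite strand, so that its count may miss most of its reads. In UACC62R at 0 h GARS1 at 147 and SARS1 at 128 led, FARSA was at 66.6, and TARS1, for threonine, was at 73.5 against 49.9 in UACC62P.

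Before CCG-222740, most synthetase mRNAs were lower in the vemurafenib-resistant line, whose 0 h libraries are also the ones labelled with vemurafenib in the culture. Of the 19 cytosolic genes 12 were lower in UACC62R than in UACC62P and 1, TARS1, was higher (edgeR quasi-likelihood test, Benjamini-Hochberg adjusted p under 0.05), where 26.1% of all tested genes were lower and 27.8% higher. Of the 16 mitochondrial genes 7 were lower and 1, LARS2, was higher. The median log2 difference was -0.47 over the cytosolic and -0.18 over the mitochondrial genes, beside 0.022 over all genes tested. Scaling by library size alone put that median of all genes at 0.102.

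Among the cytosolic enzymes outside the multisynthetase complex, WARS1 (ENSG00000140105), which charges tryptophan, stood at 384 and 319.7 CPM in UACC62P at 0 h and at 142 and 126 CPM in UACC62R. The ranges lay far apart, with a log2 difference of -1.40 ± 0.10 (SE, 2 libraries against 2, adjusted p = 3.25e-08). FARSA (ENSG00000179115) stood at 333 and 329 CPM against 133 and 146. Its difference was -1.25 ± 0.07 (adjusted p = 3.29e-09). FARSB, the other subunit of the phenylalanine enzyme, differed less, at 187 and 191 CPM against 107 and 118, a log2 difference of -0.75 ± 0.07 (adjusted p = 8.34e-07). VARS1, for valine, stood at 514 and 482 CPM against 300.4 and 309, a difference of -0.71 ± 0.06 (adjusted p = 3.14e-07). Thus in these 4 genes every UACC62R library at 0 h was below every UACC62P one, as in 14 of the 19 cytosolic genes. YARS1 for tyrosine, AARS1 for alanine, CARS1 for cysteine, NARS1 for asparagine and GARS1 were lower by smaller amounts, with log2 differences between -0.57 and -0.39. TARS1 went the other way, at 219.7 and 235 CPM in UACC62P and 319.8 and 349.6 in UACC62R (log2 difference 0.56 ± 0.07, adjusted p = 1.93e-05). HARS1 and SARS1 did not pass the test, at 0.06 and -0.19. AARS1, CARS1 and GARS1 did not pass without UACC62P 0 h replicate 1 (adjusted p = 0.059, 0.0875 and 0.148). In all, 9 of these 12 enzymes were lower and 1 was higher.

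Of the 7 cytosolic enzymes of the complex, 3 were lower. EPRS1, a fusion enzyme for glutamate and proline, stood at 397 and 372 CPM against 246 and 241, a log2 difference of -0.66 ± 0.06 (adjusted p = 7.07e-07). MARS1, for methionine, stood at 348 and 302 CPM against 223 and 194 (-0.64 ± 0.10, adjusted p = 5.63e-05), and KARS1, for lysine, at 306 and 328 against 221 and 235 (-0.48 ± 0.07, adjusted p = 3.23e-05). IARS1, LARS1, QARS1 and RARS1 did not pass, with log2 differences from -0.17 to 0.13, so the members of one complex did not share one difference. In a fit that also carried the replicate number as a block, LARS1 was lower (-0.17, adjusted p = 0.0124 with the block and 0.0663 without) and QARS1 higher (0.13, 0.0439 and 0.0892), and outside the complex SARS1 was lower (-0.19, 0.00623 and 0.0973). The median over the complex was -0.17 and over the other cytosolic enzymes -0.48, and this contrast was not tested.

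Among the mitochondrial enzymes, MARS2 (ENSG00000247626), the methionine enzyme, stood at 31.1 and 34.9 CPM in UACC62P and 9.92 and 10.1 in UACC62R. This was the largest difference of the 35 genes, -1.72 ± 0.15 on the log2 scale (adjusted p = 2e-07). AARS2, for alanine, stood at 104 and 97.0 CPM against 44.0 and 47.3 (-1.14 ± 0.11, adjusted p = 5.65e-07). NARS2, for asparagine, stood at 25.9 and 29.0 CPM against 14.3 and 17.7 (-0.78 ± 0.13, adjusted p = 0.000188). For none of these 3 did the lines overlap, and 10 of the 16 mitochondrial genes were lower without overlap. IARS2 (-0.66), TARS2 (-0.48), VARS2 (-0.45) and EARS2 (-0.26) were also lower, and LARS2, for leucine, was higher at 42.0 and 45.1 CPM against 49.9 and 54.4 (0.26 ± 0.09, adjusted p = 0.0258). EARS2 had an adjusted p of 0.0475, and its call was unchanged with the replicate block. EARS2 did not pass with DESeq2 (0.0946), median-of-ratios size factors (0.0742), library size alone (0.203), no low-count filter (0.0795) or all 16 libraries (0.191). Its log2 difference was -0.30 without UACC62P 0 h replicate 1, -0.21 without UACC62P 0 h replicate 2 and -0.18 without UACC62R 0 h replicate 1. LARS2 did not pass without UACC62P 0 h replicate 1 (0.149) or UACC62R 0 h replicate 2 (0.158). The other 8 mitochondrial genes lay between -0.21 and 0.16 and did not pass.

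**Figure D1:**
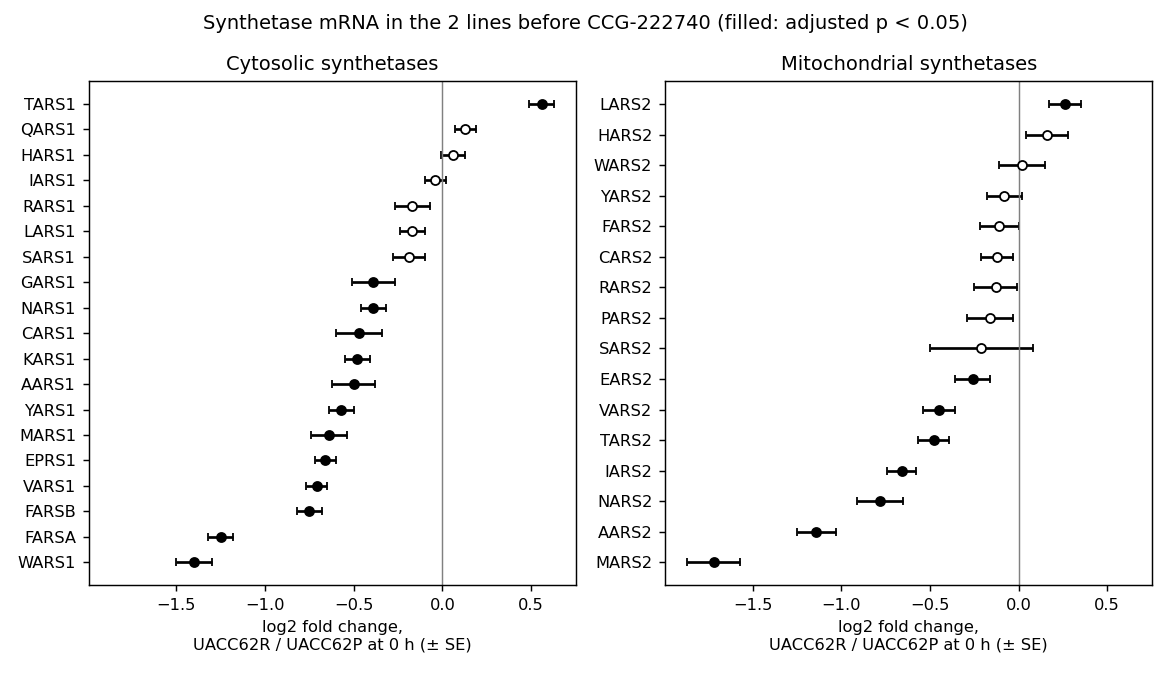
Log2 difference of each synthetase mRNA between UACC62R and UACC62P at 0 h (x axis, bars ± SE of the fit, 2 libraries a line), cytosolic genes in the left panel and mitochondrial genes in the right. Filled points passed at adjusted p under 0.05; WARS1 at -1.40 and MARS2 at -1.72 lie lowest, TARS1 at 0.56 highest.

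The cytosolic and the mitochondrial gene of one amino acid did not always go together. For methionine, alanine, asparagine and valine both the cytosolic and the mitochondrial gene were lower in UACC62R. For glutamate EPRS1 and EARS2 were also both lower, EARS2 only near the threshold. For tryptophan WARS1 was lower while WARS2 stood at 0.02, and for threonine TARS1 was higher (0.56) while TARS2 was lower (-0.48). For phenylalanine FARSA and FARSB were lower, and FARS2 stood at -0.11 and did not pass. Counted by structural class, 9 of 18 class I and 9 of 16 class II enzymes were lower and 1 of each was higher, EPRS1 holding a domain of each class. The summed level of the 19 cytosolic genes was 5791 and 5381 CPM in UACC62P at 0 h and 4173 and 4150.4 in UACC62R. The 16 mitochondrial genes together gave 829 and 862 against 598 and 629. Neither sum overlapped between the lines. In bulk RNA, fewer transcripts in each cell and fewer cells with the transcript cannot be told apart.

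In UACC62P, CCG-222740 was followed by a rise of 2 cytosolic synthetases at 24 h, MARS1 and IARS1, and of no mitochondrial one. None of the 35 genes passed at 2 h or at 6 h (0.0444% and 1.52% of all genes did). At 24 h 2 of 19 cytosolic genes were higher and 0 lower, against 2.19% and 1.65% of all genes. At an unadjusted p under 0.05 the cytosolic count was 0 after 2 h, 2 after 6 h and 14 after 24 h, with mitochondrial counts of 1, 0 and 0, beside 4.32%, 13.7% and 18.1% of all genes. DESeq2 called 0, 1 and 5 cytosolic genes and no mitochondrial one, beside 0.069%, 4.8% and 9.76% of the genes it gave an adjusted p. Those were 20280, 13596 and 13203 genes. The 14 included genes of both signs, and the cytosolic median was 0.04 against 0.000 for all genes.

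MARS1 (ENSG00000166986) stood at 348 and 302 CPM at 0 h, 307 at 2 h, 340.0 and 344 at 6 h, then 438 and 424 at 24 h. It rose at 24 h by 0.41 ± 0.10 on the log2 scale, a fold of 1.33 (adjusted p = 0.0305). IARS1 (ENSG00000196305), for isoleucine, stood at 401 and 394 CPM at 0 h, 391 at 2 h, 396 and 405 at 6 h, then 484 and 465 at 24 h. It rose by 0.26 ± 0.06, a fold of 1.20 (adjusted p = 0.0346). In both genes the 24 h libraries lay above every earlier one. Both belong to the multisynthetase complex and both are class I enzymes. IARS1 did not pass without any 1 of the 4 libraries of these times (adjusted p from 0.101 to 0.211). Without UACC62P 0 h replicate 1 the 2 genes called were MARS1 and WARS1 (0.48, adjusted p = 0.0482). The count fell to 0 without UACC62P 0 h replicate 2 and without either 24 h library, and to 0 with the left-out library restored, where 0.15% of all genes were called. About 2.1% of the exon bases of MARS1 lie in another gene, DDIT3, and whether counting used the strand is not given.

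With the replicate number as a block, 7 cytosolic genes were higher and 3 lower in UACC62P at 24 h, where 6.04% of all genes were called in each direction. The 5 added on the higher side were CARS1 (0.43, adjusted p = 0.00107 with the block and 0.0781 without), WARS1 (0.34, 0.00124 and 0.0785), GARS1 (0.34, 0.00158 and 0.129), SARS1 (0.25, 0.00478 and 0.154) and AARS1 (0.32, 0.00604 and 0.172). WARS1 stood at 463 and 426 CPM at 24 h, against 384 and 319.7 at 0 h. CARS1 stood at 186 and 171 CPM, against 145 and 120.0, and GARS1 at 685 and 605, against 557 and 461. In each of these 3 genes replicate 1 was the higher library at both times and the 24 h libraries lay above both 0 h libraries. On the lower side were FARSA (-0.25, adjusted p = 0.0109 with the block and 0.0749 without), VARS1 (-0.17, 0.0405 and 0.154) and KARS1 (-0.16, 0.0448 and 0.208). The block called no mitochondrial gene at this time.

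FARSA was at its lowest in UACC62P by 6 h. It stood at 333 and 329 CPM at 0 h, 294 at 2 h, 275 and 260.3 at 6 h, then 277 and 280.3 at 24 h, and the 6 h difference of -0.31 ± 0.07 passed with the block (adjusted p = 0.00451) and not without it (0.0543). TARS1 at 6 h, at 189 and 202 CPM against 219.7 and 235, gave 0.0141 and 0.184. These were the 2 cytosolic genes the block called at 6 h, both lower, against 3.33% of all genes. From 6 to 24 h the fit without a block called 0 cytosolic genes (0.735% of all genes in either direction). It had 8 at an unadjusted p under 0.05 (12.6% of all genes). DESeq2 called 3, beside 3.52% of the genes it gave an adjusted p. The block called 8, all higher (2.34% of all genes). WARS1 (0.42), CARS1 (0.42), SARS1 (0.36) and MARS1 (0.33) were the largest of the 8, so that their difference lay between 6 and 24 h. The others were IARS1 (0.25), YARS1 (0.25), GARS1 (0.24) and TARS1 (0.22).

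**Figure D2:**
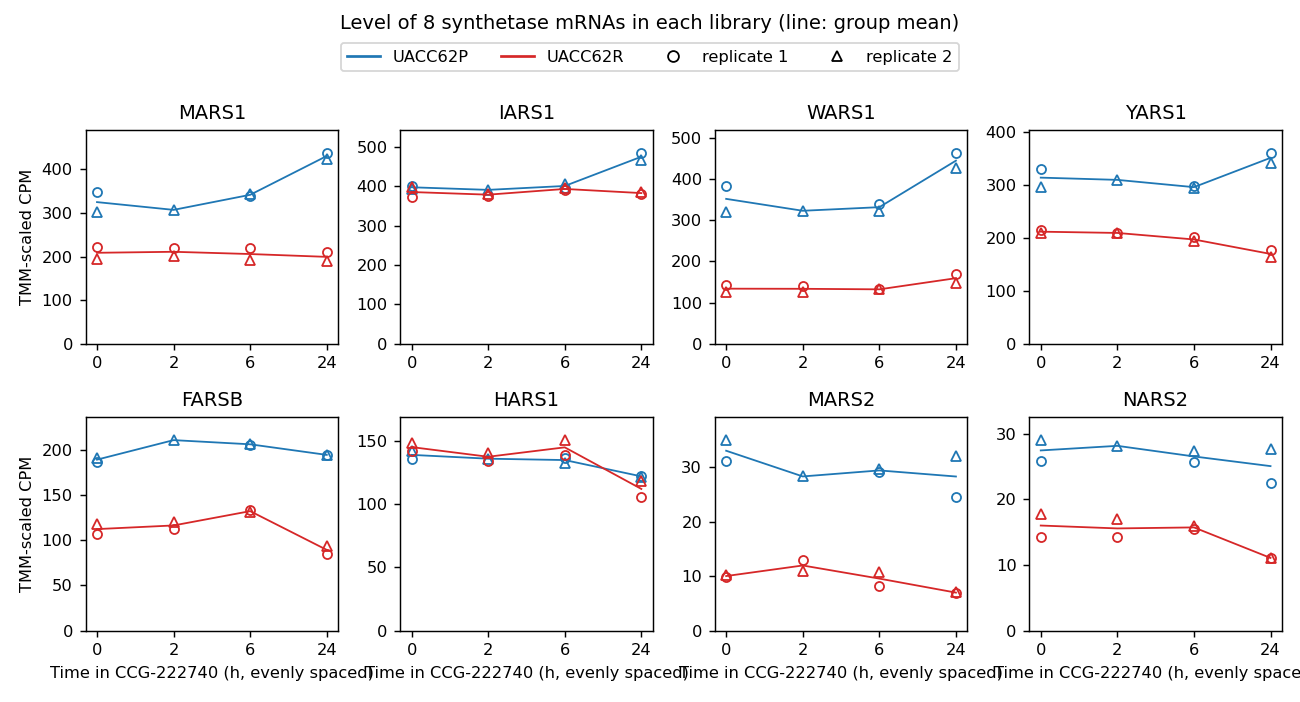
Level of 8 synthetase mRNAs (y axis, CPM after TMM scaling, from 0) at 0, 2, 6 and 24 h of CCG-222740 (x axis, times evenly spaced), UACC62P in blue and UACC62R in red. Circles are replicate 1, triangles replicate 2 and lines join group means; MARS1, IARS1 and WARS1 are highest in UACC62P at 24 h, while FARSB, HARS1 and NARS2 are lowest in UACC62R at 24 h.

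In UACC62R, 24 h of CCG-222740 was followed by lower levels of 7 cytosolic and 4 mitochondrial synthetases, and none rose. At 2 h and at 6 h none of the 35 passed (0.074% and 0.666% of all genes did). At an unadjusted p under 0.05 there were 0 and 2 cytosolic and 0 and 1 mitochondrial genes (4.21% and 9.09% of all genes). DESeq2 called none of the 35, beside 0.306% and 2.22% of the genes it gave an adjusted p. At 24 h 8.23% of all genes were lower and 6.48% higher, against 7 of 19 and 4 of 16 lower and 0 higher among the synthetases. The median was -0.07 over the cytosolic and -0.15 over the mitochondrial genes, beside 0.006 over all genes tested.

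HARS1 (ENSG00000170445) stood at 142 and 148 CPM at 0 h, 134 and 140.3 after 2 h, 139 and 150.4 after 6 h, then 106 and 118 after 24 h. It fell by 0.37 ± 0.07 (adjusted p = 0.00421), and both 24 h libraries lay below every earlier one. FARSB stood at 107 and 118 CPM at 0 h, 113 and 119.9 after 2 h, 133 and 131 after 6 h, then 85.0 and 93.5 after 24 h. It fell by 0.33 ± 0.07 from 0 to 24 h (adjusted p = 0.0083) and by 0.56 ± 0.07 from 6 to 24 h (adjusted p = 0.000335). Its 6 h value was above that of 0 h by 0.23 ± 0.07, which passed with the block (adjusted p = 0.0421) and not without it (0.266). That was 1 cytosolic gene, where the block called 1.74% of all genes higher. FARSA, its partner subunit, did not share the 6 h value: it stood at 133 and 146 CPM at 0 h, 119 and 121 at 6 h, then 107 and 112 at 24 h, and fell by 0.34 ± 0.07 at 24 h (adjusted p = 0.00607).

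VARS1 fell from 300.4 and 309 CPM to 237 and 247 (-0.33 ± 0.06, adjusted p = 0.00314). YARS1 fell from 215 and 209 CPM to 176 and 163 (-0.32 ± 0.07, adjusted p = 0.00843). TARS1 fell from 319.8 and 349.6 CPM to 262 and 276 (-0.31 ± 0.07, adjusted p = 0.0113), which brought it nearer to UACC62P. KARS1 fell from 221 and 235 CPM to 183 and 187 (-0.30 ± 0.07, adjusted p = 0.00837) and was the 1 member of the multisynthetase complex among the 7. In all 4 genes the 24 h libraries lay below both 0 h libraries. WARS1 stood at 142 and 126 CPM at 0 h and 170.0 and 149 at 24 h, a difference of 0.25 ± 0.10 that passed with the block (adjusted p = 0.00607) and not without it (0.114). The block also called LARS1 lower (-0.17, adjusted p = 0.027), where it called 11% of all genes higher and 13.2% lower. Even at 24 h WARS1 was under the lowest UACC62P library, at 319.7 CPM.

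Of the mitochondrial genes, NARS2 stood at 14.3 and 17.7 CPM at 0 h and 11.04 and 11.13 at 24 h, and fell by 0.53 ± 0.14 (adjusted p = 0.0179). MARS2 stood at 9.92 and 10.1 CPM at 0 h and 6.92 and 7.08 at 24 h, and fell by 0.52 ± 0.16 (adjusted p = 0.0385). MARS2 did not pass without any 1 of the 4 libraries (adjusted p from 0.101 to 0.168) or with scaling by library size alone (0.0569), and NARS2 did not pass without 3 of them in turn (0.0611 to 0.213). Both were already lower in UACC62R than in UACC62P at 0 h. LARS2, which was higher in UACC62R at 0 h, stood at 49.9 and 54.4 CPM and at 40.2 and 39.9 after 24 h, and fell by 0.38 ± 0.09 (adjusted p = 0.0114). CARS2, for cysteine, stood at 36.9 and 39.3 CPM and at 28.1 and 32.3 after 24 h, and fell by 0.33 ± 0.09 (adjusted p = 0.0256). The other 12 mitochondrial genes did not pass, with log2 differences from -0.25 to 0.30, and AARS2 at -0.25 passed with the block (adjusted p = 0.0416).

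The counts at 24 h in UACC62R leaned on single libraries. Without UACC62R 0 h replicate 2 they were 3 cytosolic (HARS1, VARS1 and YARS1) and 0 mitochondrial genes, all lower, as were 3.32% of all genes. Without UACC62R 24 h replicate 1 the mitochondrial count was 1, where 4.88% of all genes were lower. With the left-out UACC62P library restored both were 0 (0.894% of all genes), the common dispersion going from 0.00985 to 0.0622. From 6 to 24 h 4 cytosolic genes (FARSB, HARS1, KARS1 and VARS1) and 2 mitochondrial ones (CARS2 and NARS2) fell, against 7.39% of all genes. The block gave 8 cytosolic genes lower and 2 higher, against 12.2% and 9.94%. It added LARS1 (-0.17), NARS1 (-0.16), TARS1 (-0.20) and YARS1 (-0.22) on the lower side. On the higher side it added CARS1 (0.26) and WARS1 (0.26), and among the mitochondrial genes MARS2 was lower (-0.45). Without UACC62R 6 h replicate 2 the counts were 1 and 0, without UACC62R 24 h replicate 1 they were 2 and 0, and without UACC62R 24 h replicate 2 the mitochondrial one was 1. HARS1 shares 9.5% of its exon bases with HARS2 on the opposite strand. HARS2 stood at 41.2 and 44.9 CPM at 0 h and 35.3 and 41.9 at 24 h and did not pass.

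**Figure D3:**
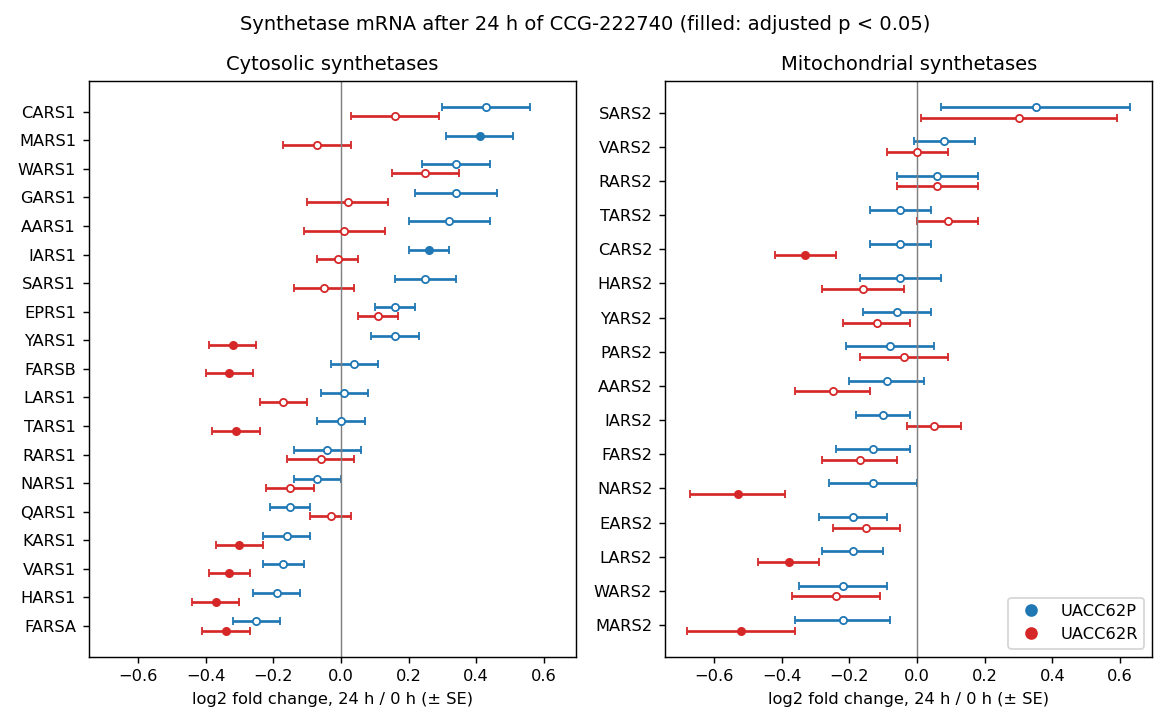
Log2 fold change of each synthetase mRNA after 24 h of CCG-222740 (x axis, bars ± SE of the fit, 2 libraries a group), UACC62P in blue and UACC62R in red, ordered by the UACC62P value within each panel. Filled points passed at adjusted p under 0.05: MARS1 and IARS1 in UACC62P, above 0, and 7 cytosolic and 4 mitochondrial genes in UACC62R, below 0.

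The difference between the lines in their 24 h response was tested directly, as UACC62R response minus UACC62P response. It called 0 of 19 cytosolic and 0 of 16 mitochondrial genes, where 0.242% of all genes were higher and 0.321% lower, with 6 and 1 at an unadjusted p under 0.05 (10.8% of all genes). DESeq2 called 2 cytosolic genes lower and no mitochondrial one, against 1.99% of the genes it gave an adjusted p. At 6 h the edgeR test called 0 and 0 (0.00493% of all genes), with 0 and 0 at an unadjusted p under 0.05 (4.69%). DESeq2 called 0 and 0 there (0.152% of the genes it gave an adjusted p). The value at 24 h was below 0 for 18 of the 19 cytosolic genes, with a median of -0.18 beside -0.019 over all genes. Of these 19, 5 stood above 0 in both lines, 6 above 0 in UACC62P alone, and 8 at or below 0 in both.

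YARS1 came nearest to the threshold. It stood at 331 and 297 CPM at 0 h and 360.4 and 342 at 24 h in UACC62P, and fell from 215 and 209 to 176 and 163 in UACC62R. The groups lay apart in opposite directions in the 2 lines, and the difference of the responses was -0.48 ± 0.10 (adjusted p = 0.0546, and 0.00163 with the block). MARS1 gave -0.47 ± 0.14 (0.159, and 0.00412 with the block). The block called 7 cytosolic genes, all with a lower response in UACC62R, against 2.29% of all genes. The other 5 were FARSB (-0.37), TARS1 (-0.31), GARS1 (-0.32), SARS1 (-0.30) and IARS1 (-0.27). The block called no mitochondrial gene.

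**Figure D4:**
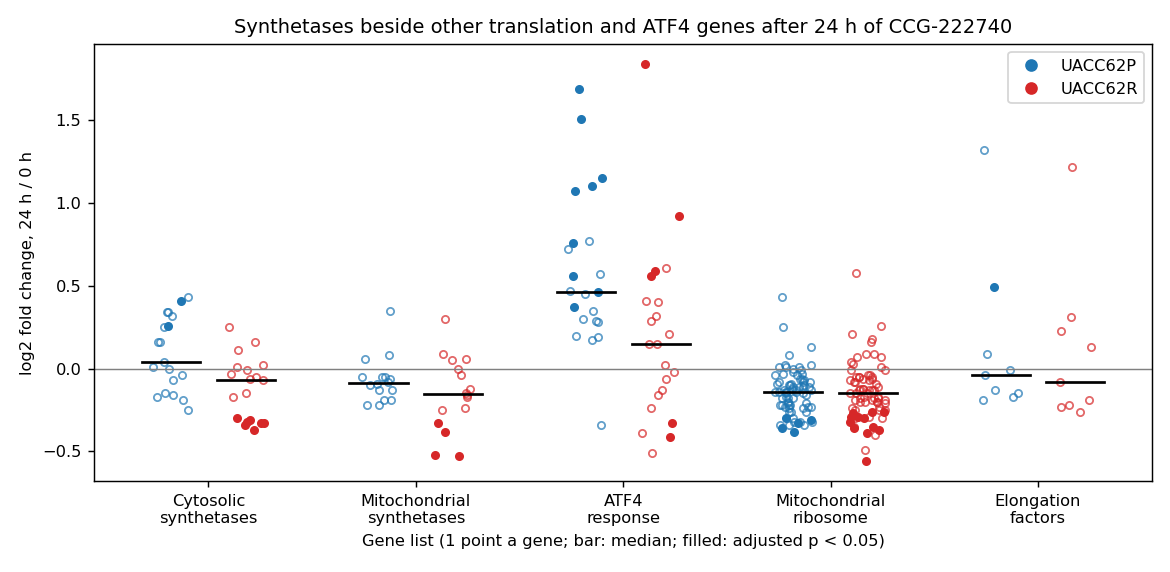
Log2 fold change after 24 h of CCG-222740 (y axis) for each gene of 5 lists (x axis), UACC62P in blue and UACC62R in red, with a bar at each median and filled points at adjusted p under 0.05. The ATF4 list has medians of 0.47 and 0.15, the cytosolic synthetases 0.04 and -0.07, and the mitochondrial ones -0.09 and -0.15.

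Genes of the ATF4 response other than synthetases were read beside them, from a list of 22. In UACC62P at 24 h 9 of 22 rose and 0 fell, beside 2.19% and 1.65% of all genes, with a median of 0.47. The block called 16 higher and 1 lower, where 6.04% of all genes were called in each direction. DESeq2 called 12 and 0 (9.76% of the genes it gave an adjusted p, in either direction). The fit with all 16 libraries called 0 and 0 (0.15% of all genes). SLC7A11, the cystine transporter, rose by 1.51 ± 0.12, its partner chain SLC3A2 by 1.69 ± 0.15, ALDH1L2 of mitochondrial folate metabolism by 1.07 ± 0.17 and ASNS, asparagine synthetase, by 1.15 ± 0.21 (adjusted p from 1.03e-05 to 0.0074). ATF4 itself stood at 321 and 240.3 CPM at 0 h and 436 and 388 at 24 h, and rose by 0.56 ± 0.11 (adjusted p = 0.0148). The rises of MARS1 and IARS1, at 0.41 and 0.26, were thus below the median of this list. In UACC62R at 24 h 4 of the 22 rose and 2 fell (6.48% and 8.23% of all genes), with a median of 0.15. The block called 8 higher and 4 lower (11% and 13.2% of all genes), and the fit with all 16 libraries 2 and 0. SLC3A2 rose by 1.84 ± 0.15, CEBPB by 0.92 ± 0.17 and SLC7A11 by 0.56 ± 0.12, while SLC7A1, an arginine and lysine transporter, fell by 0.41 ± 0.09. ATF4 stood at 199 and 189 CPM at 0 h and 226 and 204 at 24 h (0.15 ± 0.11, adjusted p = 0.448), and ASNS at 0.21 did not pass. The difference of response was called for 3 of the 22, SLC7A11 (-0.95), SLC7A1 (-0.78) and MTHFD2 (-0.62), all lower, as were 0.321% of all genes. It was called for 8 with the block, all lower (2.29% of all genes), and for 0 with all 16 libraries. DESeq2 called 5, also lower (1.99% of the genes it gave an adjusted p). At 0 h 9 of the 22 were lower in UACC62R and 3 higher, beside 26.1% and 27.8% of all genes, with a median of -0.35. SHMT2 (-1.15), PSAT1 (-1.37), DDIT3 (-1.44) and MTHFD2 (-0.89) had the smallest p-values among them, and ATF4 was at -0.53 ± 0.11 (adjusted p = 0.00117).

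Of 6 genes of kinases and phosphatase subunits that act on eIF2alpha, 4 were lower and 1 higher in UACC62R at 0 h. Over all genes the shares were 26.1% and 27.8%. In UACC62P at 24 h 1 of the 6 was higher, EIF2AK3 at 0.76 ± 0.17 (adjusted p = 0.0261), and 0 lower, beside 2.19% and 1.65%. The block also called EIF2AK4 lower there (-0.24, adjusted p = 0.0176 with the block and 0.0821 without), as it did 6.04% of all genes. In UACC62R at 24 h EIF2AK3, the kinase of endoplasmic reticulum stress, rose by 1.09 ± 0.18. EIF2AK4, the kinase that senses uncharged tRNA, fell there by 0.29 ± 0.07 (adjusted p = 0.0146). That was 1 higher and 1 lower of the 6, beside 6.48% and 8.23% of all genes.

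Of the 3 scaffold genes of the multisynthetase complex, AIMP2 stood at 86.7 and 79.6 CPM in UACC62P and 51.0 and 53.2 in UACC62R at 0 h (-0.67 ± 0.08, adjusted p = 4.67e-06). It went on to 34.8 and 33.6 CPM in UACC62R at 24 h, a fall of 0.61 ± 0.08 (adjusted p = 0.000207), which was more than that of any of the 35 synthetases. In UACC62P at 24 h AIMP2 was at 71.2 and 65.1 CPM and did not pass (-0.29, adjusted p = 0.0579), though it did with the block (0.00886) and with DESeq2 (0.0192). With all 16 libraries AIMP2 did not pass between the lines (0.0553) or at 24 h in UACC62R (0.323). AIMP1 and EEF1E1 did not pass between the lines or at 24 h. That left 1 of 3 lower between the lines and 1 of 3 lower at 24 h in UACC62R. The shares over all genes were 26.1% and 8.23%. Among 10 other genes of tRNA charging and proofreading, 5 were lower in UACC62R at 0 h and 0 higher, beside 26.1% and 27.8% of all genes. They were led by DTD2, a D-aminoacyl-tRNA deacylase, at -1.14 ± 0.12. DTD2 was also the 1 of the 10 that fell at 24 h in UACC62R, by 0.53 ± 0.12 (adjusted p = 0.00867), beside 8.23% of all genes. None of the 10 passed in UACC62P at 24 h, where 2.19% of all genes were higher and 1.65% lower. The block added QRSL1 in UACC62R (-0.30, adjusted p = 0.0152) and, for the difference of the 24 h responses, DTD2 (-0.63, 0.022). It called 13.2% and 2.29% of all genes lower in these comparisons.

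Other parts of the translation machinery gave the following counts. Of 9 elongation factor genes 6 were lower in UACC62R at 0 h and 0 higher, beside 26.1% and 27.8% of all genes. Among the 6 were EEF2 (-1.08) and the mitochondrial GFM1 (-0.93) and TUFM (-0.74). At 24 h 1 of the 9, EEF1A1 at 0.49 ± 0.12, rose in UACC62P, as did 2.19% of all genes. In UACC62R edgeR called 0 of the 9 at 24 h, with 4 at an unadjusted p under 0.05 (27.9% of all genes). The block called 2 higher and 3 lower (11% and 13.2% of all genes), and DESeq2 1 lower. Of 74 mitochondrial ribosome genes tested, 45 were lower in UACC62R at 0 h and 4 higher, against 26.1% and 27.8% of all genes. Their median was -0.36, against -0.18 for the mitochondrial synthetases. At 24 h 5 of the 74 fell in UACC62P, as did 1.65% of all genes, and 12 fell in UACC62R, as did 8.23%. Of the 16 mitochondrial synthetases 0 fell in UACC62P and 4 in UACC62R, and the lists were not tested against each other. The block called 16 lower in UACC62P (6.04% of all genes), and 23 lower and 2 higher in UACC62R (13.2% and 11%). The fit with all 16 libraries called 0 lower in UACC62P and 1 in UACC62R (0.894% of all genes). The medians of the ribosome genes were -0.14 and -0.15, beside -0.09 and -0.15 for the synthetases.

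The summed level of each set followed from these values. The cytosolic sum in UACC62P was 5791 and 5381 CPM at 0 h, 5501 at 2 h, 5417 and 5455 at 6 h, then 6212 and 5995 at 24 h. In UACC62R it was 4173 and 4150.4 CPM at 0 h, 4238 and 4172 after 2 h, 4175 and 4034 after 6 h, then 3927 and 3790.4 after 24 h. The 24 h libraries were thus the highest of UACC62P and the lowest of UACC62R. The mitochondrial sum at 24 h was 764 and 823 CPM in UACC62P, against 829 and 862 at 0 h, and 568 and 575 in UACC62R, against 598 and 629.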

How the data were processed

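RNA of 16 libraries, 2 for each of 8 groups of line and time, was prepared with a stranded mRNA kit and read as single 50-base reads, per the labels' protocols. The authors deposited raw read counts per Ensembl gene. Alignment used HISAT2 2.1.0 on hg19 and counting HTSeq 0.6.1, after base calling with bcl2fastq 2.19.0, quality reports with FastQC 0.11.5 and trimming with Trimmomatic 0.33, as listed per the submitters' processing notes. The strand setting is not named there. Unique reads in no gene were 3.31 to 4.66% and reads in more than 1 gene 5.99 to 6.81%, so members that overlap another gene (14) or have a named pseudogene (11) may be undercounted. These tail rows were left out of library sizes.

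Symbols, current or older, were matched to identifiers through a name table. Without the library UACC62P 2 h replicate 1, counts of 15 libraries were filtered with filterByExpr (20280 genes), scaled by TMM and fitted in 1 model of 8 groups with edgeR 4.0.16 (quasi-likelihood F test, 7 residual degrees of freedom, R 4.3.3). Calls were made at a threshold of 0.05 on the Benjamini-Hochberg adjusted p, over the 20280 genes and in each of 11 comparisons. Comparisons of one line share its 0 h libraries. The fits were tested on simulated data. Same-numbered libraries deviated together (r from 0.17 to 0.72 in 21 of 21 pairs of groups, over 8273 genes). No label states this pairing, and values with the replicate block are given where they change a member's call or move a count by over 1.5 times. Alternatives were the block, all 16 libraries, median-of-ratios size factors, library size alone, no low-count filter, DESeq2 1.42.0 and leaving out each library. The 2 libraries of each group differed beyond sampling noise and were counted as 2.

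All 35 members are accounted for. Of those called, up to 8 a comparison have full values, taken by absolute log2 fold change, and up to 4 genes of each other list are named by smallest p, beside ATF4, ASNS and the line markers. The members and lists were chosen with earlier results of these data known. Exon lengths and overlaps come from GENCODE v29 (GRCh38), which is not the build of the counts. Groups of 2 libraries limit the precision. The share of all genes whose groups of 2 libraries did not overlap was not counted. Statements that such groups lay apart therefore only describe the genes named.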

Additional observations from a re-analysis of the deposited data

How the results depend on the processing

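Among members called with or without the replicate block, no direction was reversed under any alternative tried. Directions of members not called were not compared. At 0 h the line difference held 13 cytosolic and 8 mitochondrial calls; leaving out 1 library gave 10 to 14 and 6 to 7, and using all 16 libraries gave 5 mitochondrial ones. For UACC62P at 24 h the 2 cytosolic calls became 10 with the replicate block, 6 without a low-count filter, 5 with DESeq2 and 0 with all 16 libraries, and 0 to 2 on leaving out 1 library. At 6 h in UACC62P the count of 0 became 2 with the replicate block and 1 with median-of-ratios size factors, without a low-count filter or with DESeq2. From 6 to 24 h in UACC62P 0 became 8 with the block, 4 without a filter and 3 with DESeq2. At 6 h in UACC62R 0 became 1 with the block. At 24 h in UACC62R the 7 cytosolic and 4 mitochondrial calls were 0 and 0 with all 16 libraries, the mitochondrial count was 2 with library size alone, and leaving out 1 library gave 3 to 7 and 0 to 3. From 6 to 24 h in UACC62R the 4 and 2 calls were 0 and 0 with all 16 libraries, the cytosolic count was 10 with the replicate block, the mitochondrial count was 1 with library size alone, and leaving out 1 library gave 1 to 4 and 0 to 2. The difference of the 24 h responses went from 0 cytosolic calls to 7 with the block, 2 without a filter, 2 with DESeq2 and 1 with library size alone. The cause of these moves was not tested; the common dispersion, 0.00985 with 15 libraries and 0.0622 with 16, moved with the counts of the last. The replicate block changed no count by more than 1.5 times other than those given. Depth did not keep any member from being tested, and SARS2, PARS2 and MARS2 had the fewest reads (48, 211 and 213 in their lowest libraries).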

Other observations

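Within groups the 2 libraries differed in a way that repeated from group to group. Over the 7 groups with both libraries, SARS1 and YARS1 were higher in replicate 1 in 7 of 7 groups, and AARS1, CARS1, EPRS1, GARS1, MARS1 and WARS1 in 6 of 7. Replicate 2 was the higher in 7 of 7 groups for 3 cytosolic genes, KARS1, LARS1 and TARS1, and for 5 mitochondrial ones, CARS2, EARS2, HARS2, NARS2 and WARS2. The median log2 difference of replicate 1 from replicate 2 was 0.22 for AARS1 and 0.21 for CARS1. The genes called in UACC62P at 24 h only with the replicate block on the higher side (CARS1, WARS1, GARS1, SARS1 and AARS1) are all among those higher in replicate 1. The labels give no reason for this split, and the fit with the replicate block, which takes it up, is given beside the results.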
